A study of Mus musculus with 14 samples.

Results

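The 39 genes described here encode the machinery that copies chromosomal DNA, with its nucleotide suppliers and the proteins that pack new DNA into chromatin. They were chosen by name and not by a threshold on any value, with earlier results of these data known, and all 39 have a row among the 21138 genes of a single-cell RNA count table. Values are given by sorted class and tissue, and cells rich in pigment-cell RNA (at least 5000 CPM, counts per megacount of the cell, summed over the melanocyte genes Pmel, Dct, Tyrp1 and Mlana) are kept apart as tumor-high cells from the tumor-low rest.

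The study sorted single cells from the blood and lungs of mice injected with fluorescently marked B16F10 cells, a melanoma line of C57BL/6J origin, and read their RNA by Smart-seq2. The 9 tumor-bearing samples are labelled as female C57BL/6J mice of 6 to 8 weeks with the treatment "Tumor", and held 539 cells of the classes CTC, DP and WBC, abbreviations that the labels do not spell out. The 5 control samples, of 1 library set each, held 109 cells: B16F10 cells grown adherent in serum-containing medium (labelled with the cell type CTC and with B16F10 as genotype and treatment, without age or sex), and the samples CDP, Duplike, PltLike and WBC, all labelled as naive female C57BL/6J mice of 6 to 8 weeks. The labels do not say that the 9 samples are separate animals, so the spread behind each p-value may in part be technical, and every control is a single sample.

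Before S phase, the origin recognition complex, Cdc6 and Cdt1 load the Mcm helicase onto DNA, a step called licensing. Cyclin E, Mcm10, Cdc45 and the Gins proteins then turn the loaded helicase into a moving fork, where polymerases work on a sliding clamp, Pcna. Many of these genes are transcribed together late in G1 under E2F factors, and resting cells hold little of their RNA.

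Tumor-high cells made up 262 of 450 DP cells, and 36 DP cells lay within 2-fold of the limit. In blood, the class held 189 tumor-high DP cells in 7 samples, 84 tumor-low DP cells in 6, 27 tumor-high CTC in 5 and 28 WBC in 6. In lung it held 73, 104, 15 and 18 cells in 4, 7, 3 and 3 samples. The median depth per cell was 19.1 Mcounts (megacounts) in tumor-high DP cells of blood, 8.07 in tumor-low DP cells, 18.3 in CTC, 4.04 in WBC, 14.5 in the B16F10 control and 1.05 in the naive WBC control. Markers went against 3 control labels: all cells of CDP, Duplike and PltLike passed the pigment limit (medians of 28967, 26550 and 24617 CPM over the 4 genes, against 29182 in B16F10), although they are labelled as naive mice. Of the platelet markers in PltLike, Pf4, Itga2b, Gp9 and Gp1bb averaged under 1 CPM. These 3 samples are therefore called by their labels only. Cells of the naive WBC control held a median of 9.65 CPM of Pmel, with a count in 95.2% of cells, so low levels of a tumor RNA in a cell may be background.

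Promoters are shown because the data below turn on genes that were low together in cultured cells. Of the 39 genes, 33 had a promoter in the RefSeq table of build GRCm38.p6, which holds 250 bases before and 50 after each start. The letters bound by E2F factors, searched on both strands as TTCCCGC, the variant TTGGCGC, the variant TTCGCGC and the variant TTGCCGC, stood in promoters of 22 of the 33 genes (66.7%), against 10.9% of 27025 genes in the table. Among 10640 promoters with a GC content between the quartiles of the members, 13.4% held them. The CCAAT box, searched as CCAAT on both strands, stood in 63.6% of the 33 genes and 41.1% of all genes, and 3 of 44 E2F matches shared letters with a CCAAT match. The 4 sequences below run over the 250 bases before the start, 5′ to 3′, with E2F letters in capitals, overlapping matches joined. They show dense letters (Mcm6, chr1:128359706-128359955, minus strand, 4 matches, and Mcm5, chr8:75109259-75109508, plus strand, 3 matches), 1 match (Rrm1, chr7:102441445-102441694, plus strand) and none (Pcna, chr2:132253181-132253430, minus strand).
Mcm6: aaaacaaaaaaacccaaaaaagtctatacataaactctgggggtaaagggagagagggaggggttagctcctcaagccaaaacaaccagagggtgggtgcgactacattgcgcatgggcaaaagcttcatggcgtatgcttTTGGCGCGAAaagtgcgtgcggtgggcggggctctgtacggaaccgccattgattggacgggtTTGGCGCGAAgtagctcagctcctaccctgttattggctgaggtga
Mcm5: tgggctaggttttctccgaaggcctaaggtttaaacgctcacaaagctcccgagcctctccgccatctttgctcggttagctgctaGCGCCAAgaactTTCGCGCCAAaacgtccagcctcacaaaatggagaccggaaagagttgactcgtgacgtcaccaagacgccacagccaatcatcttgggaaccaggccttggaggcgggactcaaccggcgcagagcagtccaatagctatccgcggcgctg
Rrm1: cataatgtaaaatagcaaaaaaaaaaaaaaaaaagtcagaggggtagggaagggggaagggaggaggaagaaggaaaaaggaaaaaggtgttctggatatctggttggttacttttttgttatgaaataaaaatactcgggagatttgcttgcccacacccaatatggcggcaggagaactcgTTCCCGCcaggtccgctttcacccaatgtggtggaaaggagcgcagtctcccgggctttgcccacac
Pcna: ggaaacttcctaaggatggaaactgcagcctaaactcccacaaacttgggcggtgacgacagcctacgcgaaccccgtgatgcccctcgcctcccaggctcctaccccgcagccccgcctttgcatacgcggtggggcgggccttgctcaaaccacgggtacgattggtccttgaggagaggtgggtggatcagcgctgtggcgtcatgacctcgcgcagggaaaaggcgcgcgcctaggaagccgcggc

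In tumor-high DP cells of blood, the 39 genes together held a median of 4326 CPM per cell, from 57.2 to 17487. The median of a sample ran from 2349 CPM in replicate 9 to 7006 CPM in replicate 2. CTC of blood had a median of 5002 CPM and tumor-high DP cells of lung 3388 CPM. The 15 CTC of lung, also rich in pigment RNA, had 1542 CPM, a pooled median over unlike samples. It was 4631 CPM in replicate 5 (10 cells), 1324 CPM in replicate 3 (4 cells) and 487 CPM in replicate 2 (1 cell). Tumor-low DP cells had 1224 CPM in blood and 663 CPM in lung, and WBC 752 and 455 CPM. The B16F10 control held only 923 CPM, in a narrow range from 622 to 2038 CPM. Of the tumor-high DP cells of blood, 130 (68.8%) lay above the highest B16F10 cell, and the share ran from 60.0% to 90.9% over the 7 samples. In tumor-low DP cells the share was 39.3% in blood and 20.2% in lung, and in CTC of lung it was 46.7%.

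**Figure D1:**
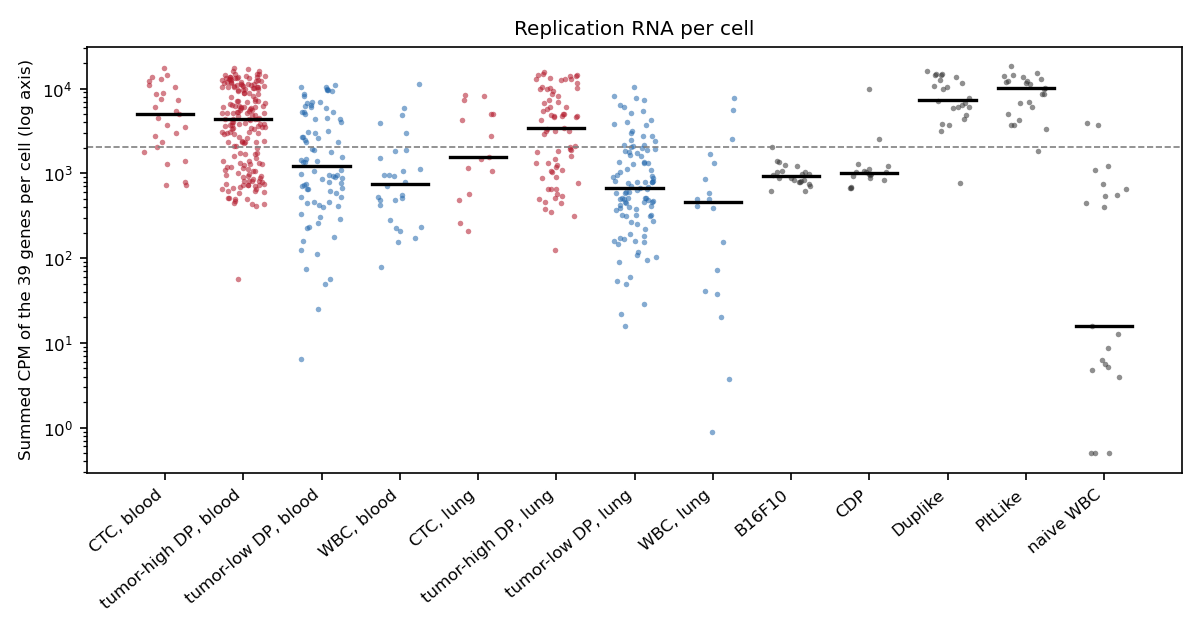
Summed level of the 39 genes in every cell (vertical axis, CPM, log axis, values under 0.5 drawn at 0.5) by class and tissue; black bars are medians and the dashed line is the highest B16F10 cell, at 2038 CPM. Tumor-high DP cells spread from 57.2 to 17487 CPM and B16F10 cells from 622 to 2038 CPM.

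Levels per kb used the joined length of all annotated exons of a gene, which can exceed that of its transcript. It was 2.40 kb for Pcna and 11.0 kb for Rrm1, so the order depends in part on annotation. On this measure, and without scaling between sums, the ribonucleotide reductase subunit gene Rrm2 was highest of the 39 in tumor-high DP cells of blood, at 175 ± 60.1 CPM per kb (SD, n = 7 samples). The clamp gene Pcna followed at 132 ± 30.2 CPM per kb, within the spread of Rrm2. Mcm3, Uhrf1, Mcm6 and Mcm2 came next, between 95.8 and 74.4 CPM per kb. The catalytic subunit gene of polymerase epsilon, Pole, was lowest at 2.77 ± 1.14 CPM per kb. All further levels are CPM of the counts summed over the cells of a sample, scaled by TMM (trimmed mean of M values, which sets sums to a common scale), and are compared within a gene.

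The comparison of cultured B16F10 cells with tumor-high DP cells of blood asks how the line in culture differs from pigment-rich cells in circulation. Replication genes were lower in the culture: 20 of 39 passed the test and 0 were higher, where 1.14% of 14511 genes passed as lower (edgeR, quasi-likelihood, p adjusted by Benjamini-Hochberg over all genes, threshold 0.05, the lone B16F10 sum assumed to vary like the others). The median log2 difference was -3.00 over the 39, also with the 2 genes of 0 counts set at their bound, and -0.17 over all genes tested. The B16F10 level lay below all 7 tumor-high DP sums for 38 of 39 genes (19.4% of all genes), and Gins3 was the exception. Against the 5 CTC sums of blood, 36 of 39 lay below (9.63% of all genes) and Gins3, Rfc4 and Chaf1b lay within. In sums, fewer cells with a transcript and less of it per cell cannot be told apart, and the values per cell are given further on. Below, genes said to fall are those called lower in B16F10, and no change over time was measured. The culture is 1 sample with its own library set, so growth in culture and the sample itself cannot be told apart. Pan-leukocyte RNA had medians of 0.597 CPM in B16F10 and 1.22 CPM in the DP cells. Ptprc, Laptm5, Cd53, Cd52 and Cd37 averaged under 1 CPM in B16F10, and the DP cells ranged from 0 to 6801 CPM over the 6 markers.

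Among the 10 licensing genes, 5 fell in culture, with a median of -3.16. Mcm5, a helicase subunit, stood at 229 CPM in the median DP sum (72.7 to 322) and at 1.18 CPM in B16F10, or -7.55 ± 1.11 on the log2 scale (SE; edgeR's adjusted p = 0.00126). Mcm3 was at 301 CPM (138 to 443) against 20.7 CPM, or -3.84 ± 0.73 (adjusted p = 0.0106). The groups did not overlap for either subunit. Mcm6 was at 334 CPM (156 to 407) against 29.5 CPM, or -3.31 ± 0.71 (adjusted p = 0.0248, and 0.0505 without replicate 6). Mcm2, another subunit of the same ring, had 437 CPM (252 to 643) against 135 CPM and did not pass, at -1.67 ± 0.55 (adjusted p = 0.203). Cdt1, which brings the ring to origins, averaged 109 CPM against 5.99 CPM (-4.11 ± 0.61, adjusted p = 0.00130). Cdc6, the loader, had 6 counts in the whole B16F10 sum. Its call (adjusted p = 0.0489) was lost without replicate 1, 3, 5, 6, 7 or 9 (adjusted p from 0.0604 to 0.113).

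Of the 8 genes for origin firing, 5 fell, with a median of -4.09. Mcm10, which helps to activate the helicase, stood at 52.3 CPM (26.0 to 80.9) in the DP sums and had 7 counts in B16F10 (0.0161 CPM), a difference of -11.69 ± 1.35 (edgeR's adjusted p = 1.36e-04). Cyclin E2 (Ccne2) had 0 counts in B16F10 against 24.2 ± 19.1 CPM (SD, n = 7), at least 3512-fold lower with a floor of 3 counts over the sum (adjusted p = 0.00408). Its sister cyclin gene Ccne1 was at 25.7 CPM against 77.3 ± 28.1 CPM and did not pass (adjusted p = 0.471). Cdc45, part of the active helicase, differed by -4.55 ± 0.78 (adjusted p = 0.00481). Gins1 and Gins2, of the same complex, also fell (-6.97 and -3.62), Gins2 with adjusted p from 0.0546 to 0.0989 without replicate 2, 3, 6 or 7. Gins4 did not pass, at -0.94 ± 0.33 (adjusted p = 0.254). Gins3 had an interval that covers both directions, at -0.82 ± 1.63 (adjusted p = 0.947). The members of one complex thus had unlike estimates, and the differences between them were not tested.

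At the fork, Pole was the 1 of 4 polymerase and primase genes that fell, from 26.0 CPM to 19 counts in the sum (-9.13 ± 1.67, adjusted p = 0.00753). Pola1, Pold1 and Prim1 had estimates between -2.61 and -2.27 that did not pass, although Prim1 did without replicate 9 (adjusted p = 0.0292). Of the clamp and its loader, 2 of 5 fell. Pclaf, a small partner protein of the clamp, had 104 to 210 CPM in the 7 DP sums, with a median of 141, and 0 counts in B16F10. It was at least 20810-fold lower against a floor of 0.0069 CPM, and its adjusted p was 3.44e-07. Rfc5, a subunit of the complex that opens the clamp, differed by -2.52 ± 0.39 (adjusted p = 0.00211). The clamp itself, Pcna, was at 268 CPM (206 to 376) against 80.2 CPM, below every DP sum, but did not pass, at -1.69 ± 0.42 (adjusted p = 0.0641). With a pigment limit of 10000 CPM it did (adjusted p = 0.0423). Rpa2, a subunit of the single-strand binding protein, fell as well (-3.40 ± 0.68, adjusted p = 0.0147), while Fen1, the flap nuclease, and Lig1, the ligase of the lagging strand, did not pass (-2.63 and -3.00).

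Nucleotide supply fell for 4 of 5 genes. Rrm2 had 490, 571, 364, 224, 506, 592 and 253 CPM in replicates 1, 2, 3, 5, 6, 7 and 9 of the DP cells and 19.4 CPM in B16F10, a difference of -4.38 ± 0.79 (edgeR's adjusted p = 0.00678). Its partner subunit Rrm1 had 385 CPM (270 to 431) against 68.9 CPM, or -2.28 ± 0.47 (adjusted p = 0.0177). Every DP sum of both genes was above the culture. Thymidylate synthase, Tyms, had 119 CPM (87.6 to 152) against 11.5 CPM, or -3.28 ± 0.40 (adjusted p = 2.46e-04). Thymidine kinase, Tk1, had 177 CPM (99.4 to 209) against 1.64 CPM, or -6.55 ± 0.88 (adjusted p = 5.57e-04). Dut, which removes dUTP, was at -1.94 ± 0.48 and did not pass (adjusted p = 0.0591, and 0.0190 without replicate 9). Of the 4 chromatin genes, Uhrf1 and Chaf1a fell. Uhrf1, which brings the maintenance methyltransferase to new DNA, had 295 CPM (165 to 487) against 21.0 CPM (-3.80 ± 0.76, adjusted p = 0.0150). Chaf1a, a subunit of the histone chaperone CAF-1, differed by -4.03 ± 0.71 (adjusted p = 0.00564), and its partner Chaf1b by -1.81 ± 0.73 (adjusted p = 0.387).

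**Figure D2:**
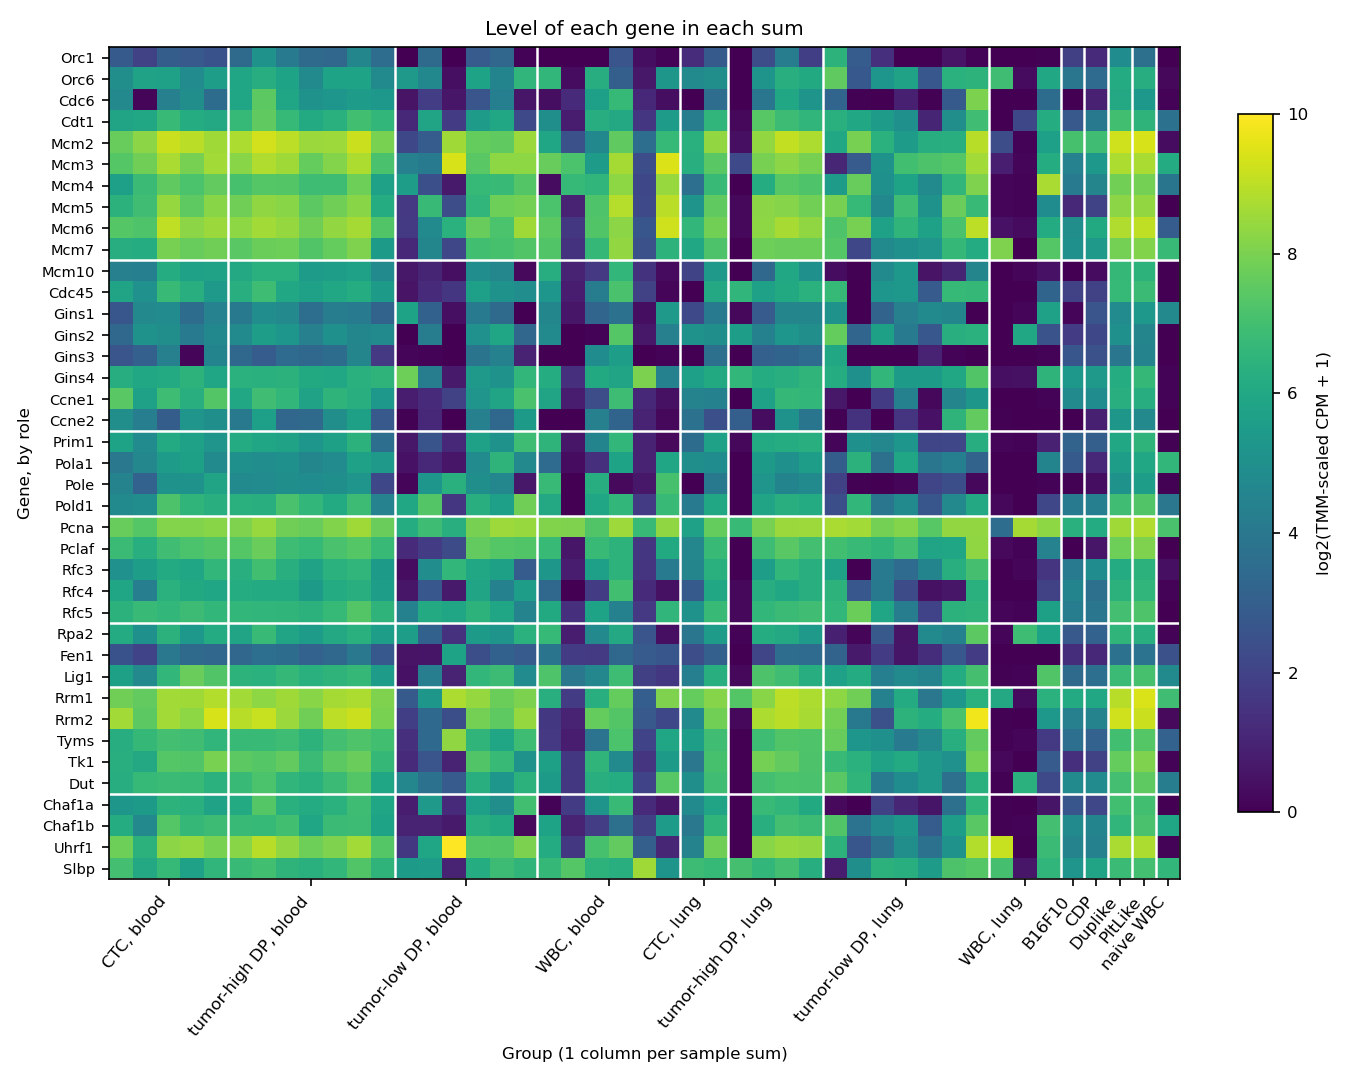
TMM-scaled CPM (log scale) of member genes by class and tissue, each value a sum of cells of 1 sample. The B16F10 and CDP values lie below every tumor-high DP sum of blood for each of the 8 most abundant members.

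With promoter letters, 11 of the 22 genes that hold E2F letters fell, with a median of -2.82, and 5 of the 11 without them, with a median of -1.94. Of the 6 genes with no entry in the table, 4 fell. Mcm6 and Mcm5, the densest promoters printed, and Rrm1 with 1 match fell, and Pcna, with none, did not pass. Pola1, with 4 matches in its window, and Mcm7, with 3 in 1 of its windows, did not pass either. Mcm10, Tk1, Tyms, Cdc45 and Rfc5 have none of these letters in the window and also fell. A match in letters describes the sequence only.

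Other gene lists were read beside the 39, and the list of brakes also holds genes of quiescence. Of 25 mitosis genes, 23 fell in B16F10, with a median of -6.84, and Cdk1 and Cenpe did not pass. Mki67, a marker of cycling cells, had 0 counts in B16F10 against 120 ± 37.7 CPM (edgeR's adjusted p = 3.7e-05). Top2a, the topoisomerase that untangles sister chromosomes, had 12.2 CPM against 254 ± 62.0 CPM. Of 35 further replication genes only 2 fell (Wdhd1, -4.92, and Asf1b, -3.72), with a median of -1.33. Pole4, Rpa1 and Ssrp1 had estimates of -0.39, -0.52 and -0.34 that did not pass. Dnmt1, the maintenance methyltransferase, was at -2.14 ± 0.52 (adjusted p = 0.0558, and 0.0192 without replicate 9). Of 18 other licensing and firing genes, 3 fell (Ccna2, E2f7 and E2f8), with cyclin A2 (Ccna2) at 1.02 CPM against 284 ± 66.5 CPM. Cdk2, Mcmbp and the Cdt1 inhibitor gene Gmnn had -0.60, -0.08 and -2.56 and did not pass, although Gmnn did without replicate 6 (adjusted p = 0.0461). Among further nucleotide genes, Shmt1, which passes one-carbon units to folate, was one of those that fell (-4.82). Of 17 brakes of the cycle, Trp53inp1 alone passed, as higher (2.17 ± 0.50, adjusted p = 0.0392, and 0.0726 to 0.0915 without replicate 1, 3, 5 or 7). The inhibitor genes Cdkn1a (0.40 ± 0.75) and Cdkn1b (-0.10 ± 0.67) and the dNTP-degrading Samhd1 (-0.33 ± 0.59) did not pass.

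The other pigment-rich controls split, and with 1 sample each they have no test. CDP resembled the culture in place: 38 of 39 genes lay below all 7 tumor-high DP sums, and Gins3 within, where 17.8% of 14708 genes lay below. Its cells had a median of 1004 CPM over the 39, and 2 of 18 cells (11.1%, exact 95% interval 1.38 to 34.7%) lay above the highest B16F10 cell, at 9914 and 2567 CPM. Duplike and PltLike had medians of 7417 and 10071 CPM, and 23 of 24 cells of each lay above the highest B16F10 cell (95.8%, interval 78.9 to 99.9%). In Duplike, 0 of 39 genes lay below the 7 DP sums and 9 above: Mcm4, Mcm6, Mcm10, Pcna, Pclaf, Rrm1, Rrm2, Lig1 and Rfc4 (10.5% of all genes lay below and 13.0% above). In PltLike, 0 lay below and 22 above (14.7% and 13.4% of all genes). Rrm2 stood at 20.9 CPM in CDP, 614 CPM in Duplike and 581 CPM in PltLike, against 19.4 CPM in B16F10. Pclaf stood at 0.528, 220 and 264 CPM. These intervals cover counting error only, and pan-leukocyte RNA had medians of 211 CPM in CDP and 222 CPM in Duplike but 0.198 CPM in PltLike.

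**Figure D3:**
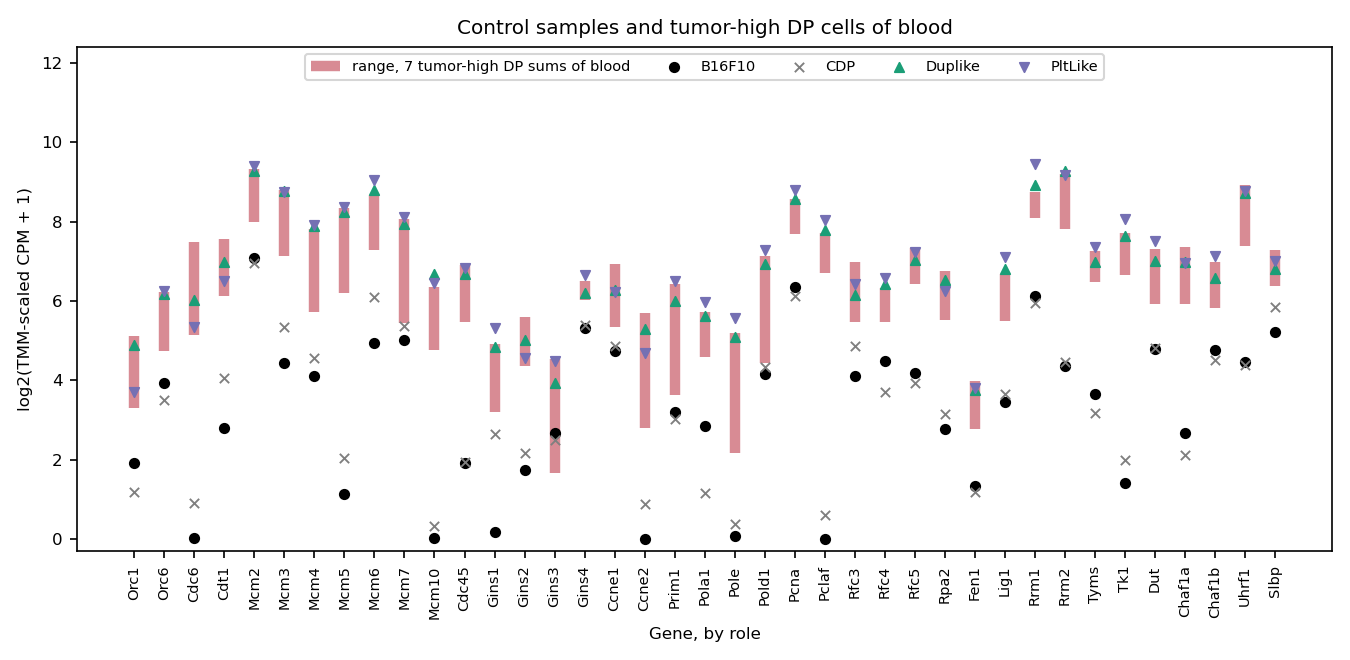
TMM-scaled level of the 39 genes in the 4 pigment-rich controls (log2 scale), set against the 7 tumor-high DP sums of blood. B16F10 and CDP lie below the range of those sums for 38 genes each, Duplike and PltLike for 0.

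Cell by cell, most of the 39 genes varied together within samples of tumor-high DP cells. Rank correlations are given as a description, over the cells of a sample, which share a library set and differ in depth. With the sum of the other members, Rrm2 had a median rho of 0.92 over the 7 blood samples, Mcm6 and Chaf1b 0.90, and Pcna and Tk1 0.89. Gins3, at 0.24, Orc1, at 0.34, and Ccne1, at 0.44, followed the others least. The median rho over pairs of members was 0.31 to 0.69 in these samples, 0.47 in Duplike and 0.46 in PltLike. In B16F10 it was 0.05 and in CDP 0.19, where the sums per cell also covered a narrow range. The number of members with a count per cell had a median of 36 in tumor-high DP cells of blood and 22.5 in B16F10, and 31 and 17.5 after every cell was thinned to 200000 counts.

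The sum of the 39 and the summed level of 25 mitosis genes ran together in most samples of tumor-high DP cells of blood, but not in every sample. In tumor-high DP cells of blood, mitosis genes had a median of 1857 CPM. The within-sample rho with the 39 was 0.59, 0.33, 0.77, 0.68, 0.67, 0.15 and 0.71 in replicates 1, 2, 3, 5, 6, 7 and 9. The lowest values came from the samples with the fewest cells, replicate 2 (12 cells) and replicate 7 (11 cells). In B16F10 their median was 106 CPM and in CDP 82.6 CPM, with rho of 0.24 and 0.20. In Duplike and PltLike the medians were 4499 and 5341 CPM, and rho was -0.18 and 0.02.

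**Figure D4:**
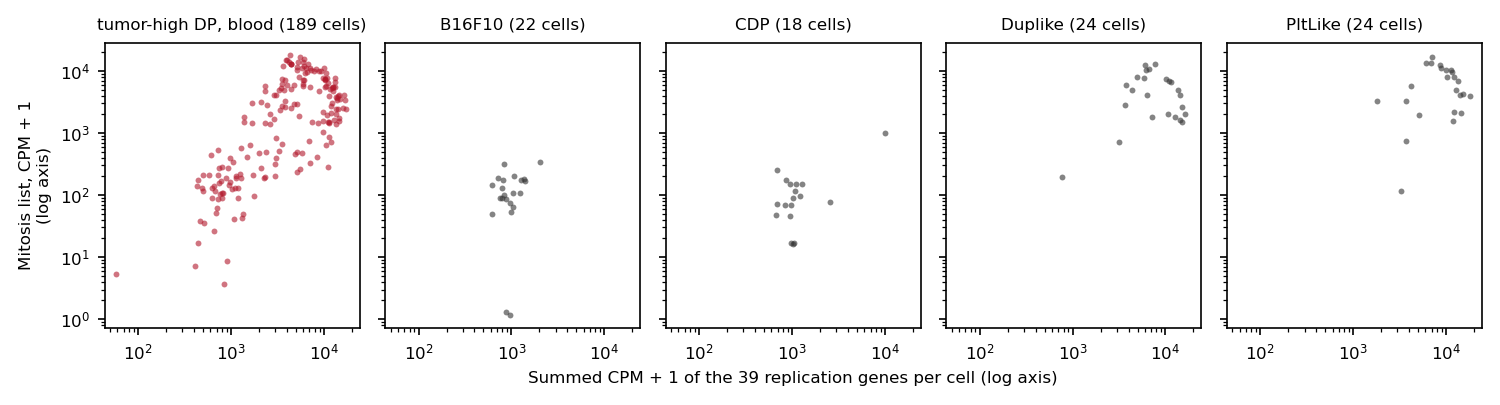
Summed CPM + 1 of 25 mitosis genes against that of the 39 replication genes, each point a cell, both axes log, 1 panel for each sample set. Tumor-high DP cells spread over both axes, while B16F10 and most CDP cells lie at the low end of both.

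Within the tumor-bearing samples, 0 of 39 genes passed in any of the 8 comparisons between classes, tissues and tumor states by the same edgeR test, in a fit over all 40 sums with the sample as a block. Counts were also simulated with few genes changed and all others at the same mean in every group. The share of genes with a log2 change of 4 that this fit found was 4 to 12%, and for a change of 2 it was 0 to 3%. These shares need not hold for the data: for CTC against WBC, 5 genes were called in the simulation and 2641 in the data. A missing call leaves changes of that size possible. The estimates are given with that limit, and the differences of the 39 genes are plotted by comparison.

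**Figure D5:**
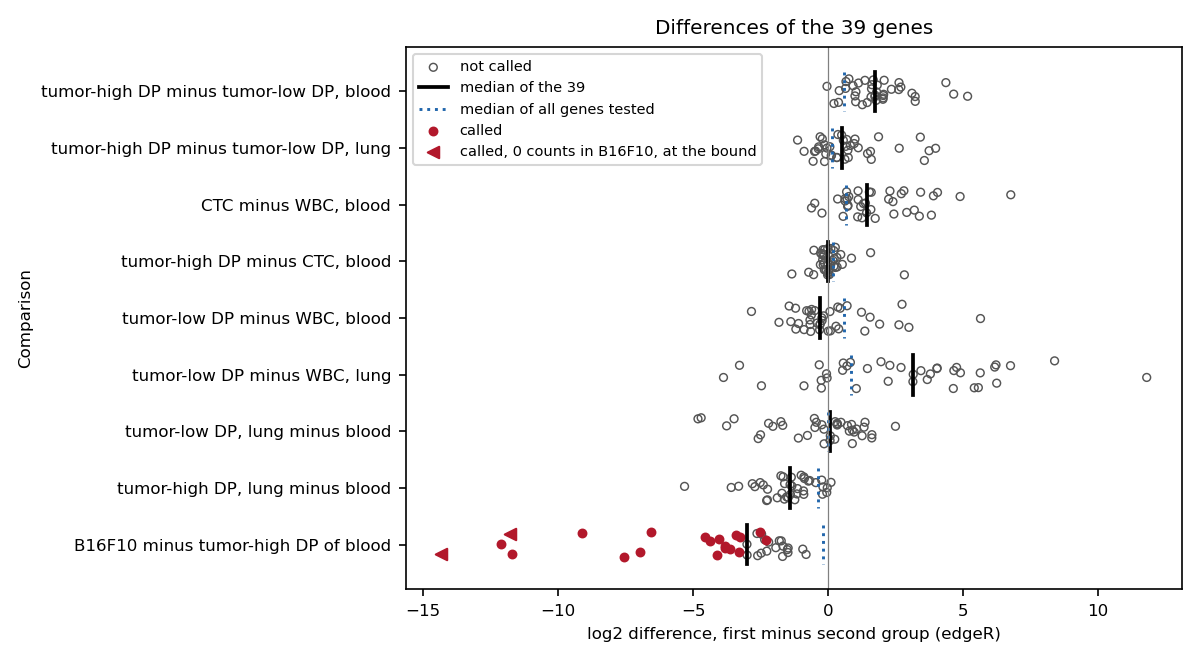
log2 differences of the 39 genes in 9 comparisons (edgeR), with filled points for called genes, triangles for Pclaf and Ccne2 at the bound set by 0 counts, black bars for the median of the 39 and dotted bars for all genes. Calls stand in the B16F10 row, where 20 genes passed.

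Tumor-high against tumor-low DP cells of blood asks whether replication RNA goes with pigment RNA within the sorted class. The estimate was above 0 for 38 of 39 genes, with a median log2 difference of 1.73 against 0.57 over all genes. None passed, where 6.27% of 14708 genes did. At an unadjusted p under 0.05 there were 3 genes, against 3078 of 14708 over all genes. DESeq2 called 6 (Mcm10, Rrm2, Tk1, Cdc6, Ccne1 and Chaf1b). Under the alternatives, up to 3668 of all genes were called. The groups did not overlap for Cdc6 and Cdt1, both higher (5.35% of all genes). Cdc6 had 34.3 to 179 CPM in tumor-high sums, with a median of 44.5, and 0.458 to 18.8 CPM in tumor-low sums, a difference of 5.17 ± 2.05 (adjusted p = 0.131). Chaf1b had the smallest p, at 4.65 ± 1.66 (adjusted p = 0.0871), and was higher in 6 of 6 samples with both kinds of cell. Both were called with only the 2 groups compared in the fit. Rrm2 stood at 2.65, 9.75, 4.35, 240, 181 and 338 CPM in tumor-low replicates 1, 2, 3, 6, 7 and 9, so that 3 samples were near 0, replicate 7 lay below the tumor-high range (224 to 592 CPM) and replicates 6 and 9 within it. The difference was 3.11 ± 1.63 (adjusted p = 0.275). Mcm2 (1.62 ± 1.10), Pcna (0.77 ± 0.56), Mcm3 (0.93 ± 1.10), Mcm6 (2.06 ± 1.24), Mcm5 (1.67 ± 1.32), Rrm1 (0.99 ± 0.93) and Uhrf1 (0.39 ± 1.32) did not pass.

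Leukocyte RNA moved with the split: the 6 pan-leukocyte markers together had a median of 1.22 CPM in tumor-high DP cells of blood (0 to 6801) and 4406 CPM in tumor-low ones (0.304 to 10312), with all 6 averaging at least 10 CPM in both. Its part in the result was not tested. In replicate 6, 10 of 20 tumor-low cells held under 100 CPM of these markers and a median of 2762 CPM of the pigment genes, and these 10 had a median of 1701 CPM over the 39, against 4480 CPM in the other 10. With cells pooled over all blood samples, the 11 tumor-low cells under 100 CPM of the markers had 2441 CPM and the other 73 had 1100 CPM. Of these 11, 10 were the replicate 6 cells. The remaining 1 came from replicate 9, with 6809 CPM over the 39 and 17405 CPM of fibroblast markers. The pooled medians thus mix samples and give no order within them. Without the 11 cells of blood and the 11 of lung under 100 CPM of the markers, a choice made after seeing the data, Cdc6 passed in blood (5.92, edgeR's adjusted p = 0.0385). Of the other lists, 5 of 18 genes of brakes and quiescence were lower in tumor-high cells: Btg1 (-3.78), Btg2 (-4.28), Klf2 (-6.00), Samhd1 (-2.30) and Gas6. Over all genes, 639 of 14708 were called lower. Of 35 further replication genes, Pole4, a small subunit gene of polymerase epsilon, was higher (2.06 ± 0.57), and Pold4, one of polymerase delta, was lower (-3.05 ± 0.76). Of the nucleotide genes, Paics was higher (1.73 ± 0.50). Several of these calls rested on single samples. Btg2 was lost without replicate 1, 2 or 7 (adjusted p from 0.0534 to 0.157) and Samhd1 without 1, 3, 5 or 7 (0.0795 to 0.119). Pole4 was lost without replicate 1, 3, 5, 7 or 9 (adjusted p from 0.0598 to 0.144), Pold4 without 1 or 3 (0.0581 and 0.0510), and Paics without 1, 2, 3, 5 or 7 (0.0905 to 0.159).

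In lung, the same comparison had a median of 0.50 against 0.14 over all genes, with 26 of 39 estimates above 0. None passed (3.55% of all genes did), and 2 had an unadjusted p under 0.05 (2258 of 14708 over all genes). DESeq2 called 2, Ccne1 and Chaf1a. Ccne1 averaged 62.6 ± 47.3 CPM (SD, n = 4) against 12 ± 15.1 CPM (n = 7), a difference of 3.57 ± 1.57 (adjusted p = 0.251). The direction of the median rested on single samples: it was -0.29 without replicate 7 and 1.02 without replicate 3. In replicate 3, the tumor-high lung sum came from 2 cells. There Rrm2 was at 0.164 CPM, against 433, 499 and 417 CPM in replicates 5, 7 and 8. The difference between the tissues in this contrast, tested gene by gene, passed for 0 of 39 (0.0% of all genes). There was 1 unadjusted p under 0.05 (533 of 14708 over all genes) and 0 calls of members by DESeq2.

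CTC against WBC in blood had a median of 1.42 (0.66 over all genes), 36 of 39 estimates above 0 and no call, where 18.0% of all genes passed. At an unadjusted p under 0.05 there were 7 genes, against 4388 of 14708 over all genes. DESeq2 called 9 members, and under the alternatives up to 5512 of all genes were called. Mcm2 alone did not overlap (7.89% of all genes did so as higher). It had 204, 304, 594, 495 and 382 CPM in CTC of replicates 1, 2, 3, 5 and 6, and 4.59 to 186 CPM in the 6 WBC sums, with a median of 41.4. The difference was 3.19 ± 1.27 (edgeR's adjusted p = 0.0796), and without replicate 4, whose WBC sum holds 2 cells, Mcm2, Orc1 and Rfc4 passed. Without replicate 1, Ccne1 passed, and without replicate 3, Rrm2 and Ccne2. Pcna did not differ in level by more than its error: 245 ± 59.3 CPM in CTC (SD, n = 5) and 251 ± 102 CPM in WBC (n = 6). Cdk2, which partners the E cyclins, was higher in CTC (5.43 ± 1.17, adjusted p = 0.00146, and 0.155 with only sums of at least 5 cells).

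Tumor-high DP cells and CTC of blood, both rich in pigment RNA, had estimates on either side of 0, with a median of -0.02 over the 39 and 18 above 0. None passed (0.401% of all genes did), 0 had an unadjusted p under 0.05 (1206 of 14708 over all genes) and DESeq2 called 0 members. Cdc6 and Orc1, an origin recognition subunit, did not overlap (1.16% of all genes, as higher in DP). Orc1 had 8.94 to 33.6 CPM in DP and 6.09, 2.88, 6.79, 5.89 and 4.71 CPM in CTC, a difference of 1.57 ± 1.99. Rrm2 averaged 428 ± 149 CPM in DP (SD, n = 7) and 391 ± 181 CPM in CTC (n = 5), a difference of 0.10 ± 1.34. Standard errors of this size do not show that the classes are alike.

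Tumor-low DP cells against WBC had a median of -0.29 in blood (0.57 over all genes) with 16 estimates above 0. None passed (0.0204% of all genes did), 0 had an unadjusted p under 0.05 (1403 of 14708 over all genes), and DESeq2 called Orc1. The median of the 39 was 0.63 without replicate 3 and -0.77 without replicate 5. In lung it was 3.14 (0.85 over all genes), with 30 estimates above 0. None passed (0.122% of all genes did), and 11 had an unadjusted p under 0.05 (2499 of 14708 over all genes). DESeq2 called 15 higher and Uhrf1 lower, and under the alternatives up to 3871 of all genes were called. The 7 DP sums lay above the 3 WBC sums for Pclaf, Tyms, Tk1, Pold1 and Fen1 (3.26% of all genes). Tyms had 16.7 to 204 CPM in DP, with a median of 37.5, and 0.0277, 0.144 and 2.25 CPM in WBC of replicates 2, 3 and 5, a difference of 6.76 ± 2.06 (adjusted p = 0.125). Fen1 had 0 counts in all 3 WBC sums. Pcna was at 310 ± 87.0 CPM (SD, n = 7) and 240 ± 203 CPM (n = 3). The median of the 39 in lung ran from 1.68 without replicate 2 to 7.83 without replicate 5. Fibroblast markers were present in lung cells of both classes: their sum per cell reached 165704 CPM in tumor-low DP cells and 122497 CPM in WBC, with medians of 0.149 and 4.10 CPM. Other cell types differed between the 2 classes of lung. Alveolar macrophage markers had medians of 2469 CPM in tumor-low DP cells and 21.6 CPM in WBC. Neutrophil markers averaged 141 and 19205 CPM (medians of 13.2 and 15.8). Lung epithelium markers averaged 36.1 and 21482 CPM (medians of 0). The part of these cell types was not tested.

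Between tissues, tumor-low DP cells had a median difference, lung minus blood, of 0.08 (-0.55 without replicate 1, 0.68 without replicate 6). None of the 39 passed (0.143% of all genes did), and 3 had an unadjusted p under 0.05 (1407 of 14708 over all genes). DESeq2 called 4 lower in lung (Mcm3, Pole, Uhrf1 and Chaf1a). Pole averaged 1.53 ± 1.85 CPM in lung (SD, n = 7) and 28.8 ± 29.9 CPM in blood (n = 6), a difference of -4.82 ± 2.03 (adjusted p = 0.413). In tumor-high DP cells, 38 of 39 estimates were below 0 in lung and Rrm1 was above (though below 0 with equal weight per cell), with a median of -1.39 (-0.38 over all genes). None passed (0.0272% of all genes did), 0 had an unadjusted p under 0.05 (501 of 14708 over all genes) and DESeq2 called Cdc6 lower. Without replicate 3, with its lung sum of 2 cells, the median was -0.42, and without replicate 7 it was -1.86. Rrm1 had 159, 295, 506 and 439 CPM in lung replicates 3, 5, 7 and 8 and 270 to 431 CPM in blood.

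In the naive WBC control, the 39 genes had a median of 16 CPM per cell and a maximum of 3974, and a median of 3 members with a count. Of the 39, 17 lay below all 6 blood WBC sums of tumor-bearing samples (5.92% of all genes) and 2 above, Pola1 and Chaf1b (11.7% of all genes). Pcna stood at 141 CPM and Rrm1 at 122 CPM, while Rrm2 stood at 0.207 CPM and Mcm5 had 0 counts. Its cells had a median of 1.05 Mcounts and 2226 genes, against 4.04 Mcounts and 5914 genes in blood WBC of tumor-bearing samples. Neutrophil markers had medians of 614 and 16.7 CPM (means of 21710 and 4116). Monocyte and macrophage markers had medians of 12188 and 20858 CPM, and B cell markers 11.2 and 10.9 CPM. The parts of depth and of cell types in this difference were not tested.

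For 11 members (Ccne2, Cdc45, Chaf1a, Fen1, Gins2, Lig1, Mcm7, Orc6, Rfc4, Rfc5 and Tk1), exons overlap a gene on the opposite strand, and the strand setting of the counting is not given in the sources used here. Their reads and those of the neighbour cannot be told apart.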

How the data were processed

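Smart-seq2 RNA of 648 sorted cells was used as deposited: raw counts per gene and cell, whole numbers that the authors did not normalize. Per the submitters' processing notes, the tools were Trim Galore, HISAT2, SAMtools, featureCounts, BWA and Picard, on mm10; their versions and the strand setting were not given in the sources used here. Counts per cell ran from 20525 to 104170496, 56.7% of nonzero counts were even, and PCR copies were not marked, so intervals and floors cover counting error only. No 2 cells had identical counts. DNA data were not analysed here.

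The 39 members, the gene lists and the tests were chosen with earlier results of these data known. Counts were summed per sample, tissue, class and tumor state over at least 2 cells (40 sums and 5 controls). This left out 1 CTC under the pigment limit and 1 CTC of lung that was the only cell of its sum. Tests used edgeR 4.0.16 (quasi-likelihood, TMM, filterByExpr) under R 4.3.3 and limma 3.58.1. Sample was the block, and p was adjusted by Benjamini-Hochberg over all genes at 0.05. The B16F10 comparison used blood sums of tumor-high DP and CTC with no block. The sample is the labels' batch, and classes were sorted from the same samples: deviations of same-sample sums correlated at a median of 0.02 over 89 pairs (-0.10 to 0.21, 10 over 0.1), other pairs at -0.0018. All 39 members passed the filter in both fits.

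Alternatives were DESeq2 1.42.0, its size factors, no filter, no block, only the groups compared, equal weight per cell, at least 5 cells, pigment limits of 2000 and 10000 CPM, and leaving out each sample. On simulated B16F10 counts with 14238 genes, 11% of genes changed by 2 and 43% of those changed by 4 on the log2 scale were recovered. Few genes were changed there too, so these shares need not hold for the data. Members with the 8 highest mean levels and, in each other list, the 4 highest were named, with members called or with the smallest p, and Mki67, Top2a, Samhd1, Cdkn1a, Cdkn1b, Gmnn and Dnmt1; genes named for not overlapping or as the few called of a list were chosen after their values were seen. Some genes of the list of further nucleotide genes are not reported here. Promoters are from RefSeq and matched by symbol. Exon lengths are from the reference annotation of GRCm38.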

Additional observations from a re-analysis of the deposited data

Results flagged for a closer look

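Of 54 groups of 4 to 10 sums examined, 9 held a sum that stood far from the others of its group. Chance gives about 1 in 20 for independent groups. These groups hold the same sums for genes that vary together, so the count cannot be set against that share. In tumor-low DP cells of lung, replicate 8, with 4 cells, was the highest of 7 samples in the mean summed level of the 39 genes per cell (3525 CPM, next 2022), in Rrm2 (889 CPM, next 238), Mcm3 (388 CPM, next 163), Mcm6 (506 CPM, next 246) and Uhrf1 (458 CPM, next 88.1). Of its 4 cells, 1 held under 100 CPM of pan-leukocyte RNA and 10407 CPM over the 39. In tumor-high DP cells of lung, replicate 3, with 2 cells, was the lowest of 4 in Rrm2 (0.164 CPM, next 417) and in Uhrf1 (0 CPM, next 299). WBC of blood, replicate 4, with 2 cells, had the highest mean summed level of 6 samples (4457 CPM, next 1909). Uhrf1 in tumor-low DP cells of blood was highest in replicate 3, with 2 cells (1206 CPM, next 260.0).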

How the results depend on the processing

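Of 102 estimates of named genes recomputed under the alternatives, 9 changed sign, and none of the 9 was called in the fit reported. In tumor-high against tumor-low DP cells, Uhrf1 of blood (0.39) was -0.076 with the 10000 CPM limit and -0.26 to 1.42 with single samples left out, and Rrm2 of lung (0.50) was -0.041 with only the groups compared and -0.59 to 1.24 with samples left out. In CTC against WBC, Ccne2 (3.90) was -0.77 with at least 5 cells, and Pcna (0.35) was -0.0033 and -0.0034 by DESeq2 and by its size factors, -0.20 with equal weight per cell, and -0.14 to 0.54 with samples left out. Rrm2 between DP cells and CTC (0.10) was -0.034 with no replicate block, -0.012 with only the groups compared, and -0.55 to 0.44 with samples left out. Pcna between tumor-low DP cells and WBC of lung (-0.06) was 0.31 with no block, 0.12 with equal weight, 1.09 with at least 5 cells, 0.087 with the 10000 CPM limit, 0.45 with only the groups compared, and -0.90 to 0.82 with samples left out. Rrm1 between tissues in tumor-high DP cells (0.11) was -0.086 with no block, -0.35 with equal weight, -0.18 with the 2000 CPM limit, -0.37 with only the groups compared, and -0.031 to 0.63 with samples left out. In B16F10, Mcmbp (-0.08) was 0.036 with equal weight, and Cdkn1b (-0.10) was -0.26 to 0.11 with samples left out. The causes were not tested. The interaction and the comparison of tumor-high DP cells with CTC had 0 members called under all of them. In B16F10 against tumor-high DP cells, 17 to 22 members were called when single samples were left out and 34 by DESeq2, against 20. DESeq2 called 6 members in tumor-high against tumor-low DP cells of blood, 2 in lung, 9 in CTC against WBC, 1 and 16 in tumor-low DP cells against WBC of blood and lung, and 4 and 1 between tissues in tumor-low and tumor-high DP cells, all against 0. With only the groups compared in the fit, the calls were 2, 1 and 9 in the first 3 of these. CTC against WBC had 1 call with equal weight per cell, 1 with the 10000 CPM limit, and 0 to 3 with single samples left out. Tumor-low DP cells against WBC of lung had 1 call with that limit and 0 to 1 with samples left out. The sample served as replicate block because the classes were sorted from the same samples: with no replicate block, 2 members were called in that lung comparison (Tyms and Fen1), and no other count of members changed. With tumor-low DP cells rich in leukocyte RNA only, chosen after seeing the data, 1 member was called in tumor-high against tumor-low DP cells of blood.

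Calls over all genes moved more, apart from samples left out: 922 became 490 to 3668 in tumor-high against tumor-low DP cells of blood, 522 became 129 to 2951 in lung, 2641 became 321 to 5512 in CTC against WBC, 59 became 0 to 1295 between DP cells and CTC, 3 became 0 to 2269 and 18 became 0 to 3871 in tumor-low DP cells against WBC, 21 became 1 to 1735 and 4 became 0 to 494 between tissues, 0 became 0 to 608 for the interaction, and 212 became 201 to 1283 for B16F10. Sums of 2 cells, the fewest used, limit the precision of their values, and the B16F10 result rests on 1 culture sample of 22 cells.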
